A study of Rattus norvegicus with 21 samples.

Results

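The lymphocyte markers followed here are 9 genes: Cd3d, Cd3e and Cd8a of T cells, Gzmb, Nkg7 and Prf1 of the cytotoxic granule, and Cd79a, Cd79b and Ms4a1 of B cells. They were chosen by gene symbol out of 32623 genes, and each has 1 entry in both deposited tables. Their RNA was read in 21 bulk liver libraries of rats, 3 in each of 7 groups. The Wistar groups were control and early weaned rats at d23 and at d63. The groups of the SD (Sprague Dawley) strain were taken at d211 and comprised controls, early weaned rats, and early weaned rats whose drinking water held 1.5% leucine, a branched-chain amino acid. Early weaning takes pups from the dam before the usual age. The labels name no transgene or deletion, and they do not tell whether the samples of a group came from different rats. Every p-value given here therefore rests on sample-to-sample spread that may be technical.

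T cells and B cells are the lymphocytes that recognise antigen through a receptor each cell assembles for itself. The T cell receptor signals through the CD3 chains, and CD8 is the co-receptor of the T cells that kill infected or altered cells. Killing proceeds by the release of granules, which perforin lets into the target and whose granzymes start its death, and natural killer cells carry the same granules. The B cell receptor signals through the CD79 pair. The liver holds resident lymphocytes among its sinusoids, rich in natural killer and CD8-bearing cells, and it is a site of blood cell formation before and around birth.

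Cd3d and Cd3e encode CD3 delta and CD3 epsilon, which lie near each other at chromosome 8, 49282460 to 49287110 and 49297608 to 49308806. Cd8a encodes the CD8 alpha chain, which some natural killer cells of the rat also carry, and lies at chromosome 4, 99239115 to 99243351. Prf1 encodes perforin and lies at chromosome 20, 30915213 to 30921382. Nkg7 encodes a membrane protein of cytotoxic granules and lies at chromosome 1, 98492828 to 98493978. Gzmb encodes granzyme B and lies at chromosome 15, 36327721 to 36472346. Cd79a and Cd79b encode the signalling chains of the B cell receptor, at chromosome 1, 81763614 to 81767980 and at chromosome 10, 94497448 to 94500591. Ms4a1 encodes CD20, a surface protein of mature B cells, at chromosome 1, 227429596 to 227441442. These are the coordinates of the deposited tables, whose rat build is not named there. All 9 entries are protein coding. The Gzmb entry spans 144626 bases and overlaps 3 other entries, 2 of them on its strand, and granzymes form a family of like sequences, so its value is uncertain. The other 8 entries overlap no gene.

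Promoters are shown of the 5 markers that were called as higher at d63 over both Wistar arms (below) and have an entry in the RefSeq promoter table. Of these, Cd3e and Nkg7 did not pass in early weaned livers alone, and Cd79a passed in neither arm alone. Shared control of these genes was not tested. Each run holds the 250 bases before the annotated start in build GRCr8, which is not the build of the deposited coordinates, and reads 5′ to 3′ on the gene's strand. Capitals mark matches on either strand to CAGGAA, the core bound by ETS-type factors, TGTGGT, bound by RUNX-type factors, and CAGNTG, an E-box. The regions are chr4:104923866-104924115 (plus strand), chr8:54211771-54212020 (minus strand), chr20:29788790-29789039 (plus strand), chr1:102981247-102981496 (plus strand) and chr1:89621210-89621459 (plus strand). The deposited coordinates place Nkg7 on the minus strand, unlike GRCr8, and whether its run lies before the deposited entry was not tested.
Cd8a: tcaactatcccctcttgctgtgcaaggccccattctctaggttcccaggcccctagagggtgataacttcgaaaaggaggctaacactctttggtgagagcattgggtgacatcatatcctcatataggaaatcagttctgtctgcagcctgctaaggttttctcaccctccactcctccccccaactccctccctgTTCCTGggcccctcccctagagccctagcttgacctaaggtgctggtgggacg
Cd3e: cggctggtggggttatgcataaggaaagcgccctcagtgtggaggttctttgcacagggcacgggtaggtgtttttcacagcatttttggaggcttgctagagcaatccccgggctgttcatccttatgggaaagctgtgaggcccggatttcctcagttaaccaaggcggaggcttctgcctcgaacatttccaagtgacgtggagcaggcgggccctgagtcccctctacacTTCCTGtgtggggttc
Prf1: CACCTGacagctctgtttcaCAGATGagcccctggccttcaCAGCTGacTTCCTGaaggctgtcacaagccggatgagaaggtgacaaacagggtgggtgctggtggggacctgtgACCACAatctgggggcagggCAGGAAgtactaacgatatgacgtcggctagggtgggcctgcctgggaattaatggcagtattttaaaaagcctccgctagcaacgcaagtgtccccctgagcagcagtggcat
Nkg7: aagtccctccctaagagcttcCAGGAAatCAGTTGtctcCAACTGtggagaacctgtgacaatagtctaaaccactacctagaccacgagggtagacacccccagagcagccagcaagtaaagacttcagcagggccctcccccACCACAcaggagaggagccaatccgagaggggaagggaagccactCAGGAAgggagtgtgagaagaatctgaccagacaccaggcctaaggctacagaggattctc
Cd79a: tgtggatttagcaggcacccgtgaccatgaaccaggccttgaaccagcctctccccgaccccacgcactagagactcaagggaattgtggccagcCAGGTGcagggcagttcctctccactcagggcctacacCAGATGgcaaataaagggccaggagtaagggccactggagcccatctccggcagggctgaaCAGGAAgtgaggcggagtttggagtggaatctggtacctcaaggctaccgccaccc
Among the 7 markers with an entry, CAGGAA matched in 5, TGTGGT in 3 and CAGNTG in 3. Of all 33469 promoters of the table, 24.7% held CAGGAA, 14.5% TGTGGT and 43.3% CAGNTG in the same 250 bases. The Prf1 promoter held 6 matches and the Nkg7 promoter 5, with all of the motifs in each, whereas the Cd8a and Cd3e promoters held 1 match each. A match is a run of letters and not a measured binding site. The promoter of Gzmb held 3 matches, all to TGTGGT, and that of Cd3d none.

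Total counts ran from 52054644 to 75118153 per library, with about 4 count units to a fragment. Albumin, the hepatocyte's main secreted protein, ran from 33680 to 85370 FPKM (fragments scaled to transcript length and to the library's total), and the leukocyte phosphatase Ptprc from 0.87 to 3.58. The markers were scarce. Their mean levels exceeded those of 20.3 to 43.0% of the detected genes in the Wistar table and of 18.2 to 55.7% in the SD table, with Gzmb lowest in both. At d23 only Cd79a and Prf1 had a count of at least 10 in all 3 libraries of a group. The filter asks for about this count in any 3 libraries of a table, whatever their group. Cd3d, Cd3e, Gzmb and Ms4a1 passed it in the Wistar table only with their d63 libraries, and all on low counts at d23. Gzmb did not pass it in the SD table. One d23 control library, replicate 3, stood apart: without it 6001 genes differed by age in controls, against 2710 with it.

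**Figure D1:**
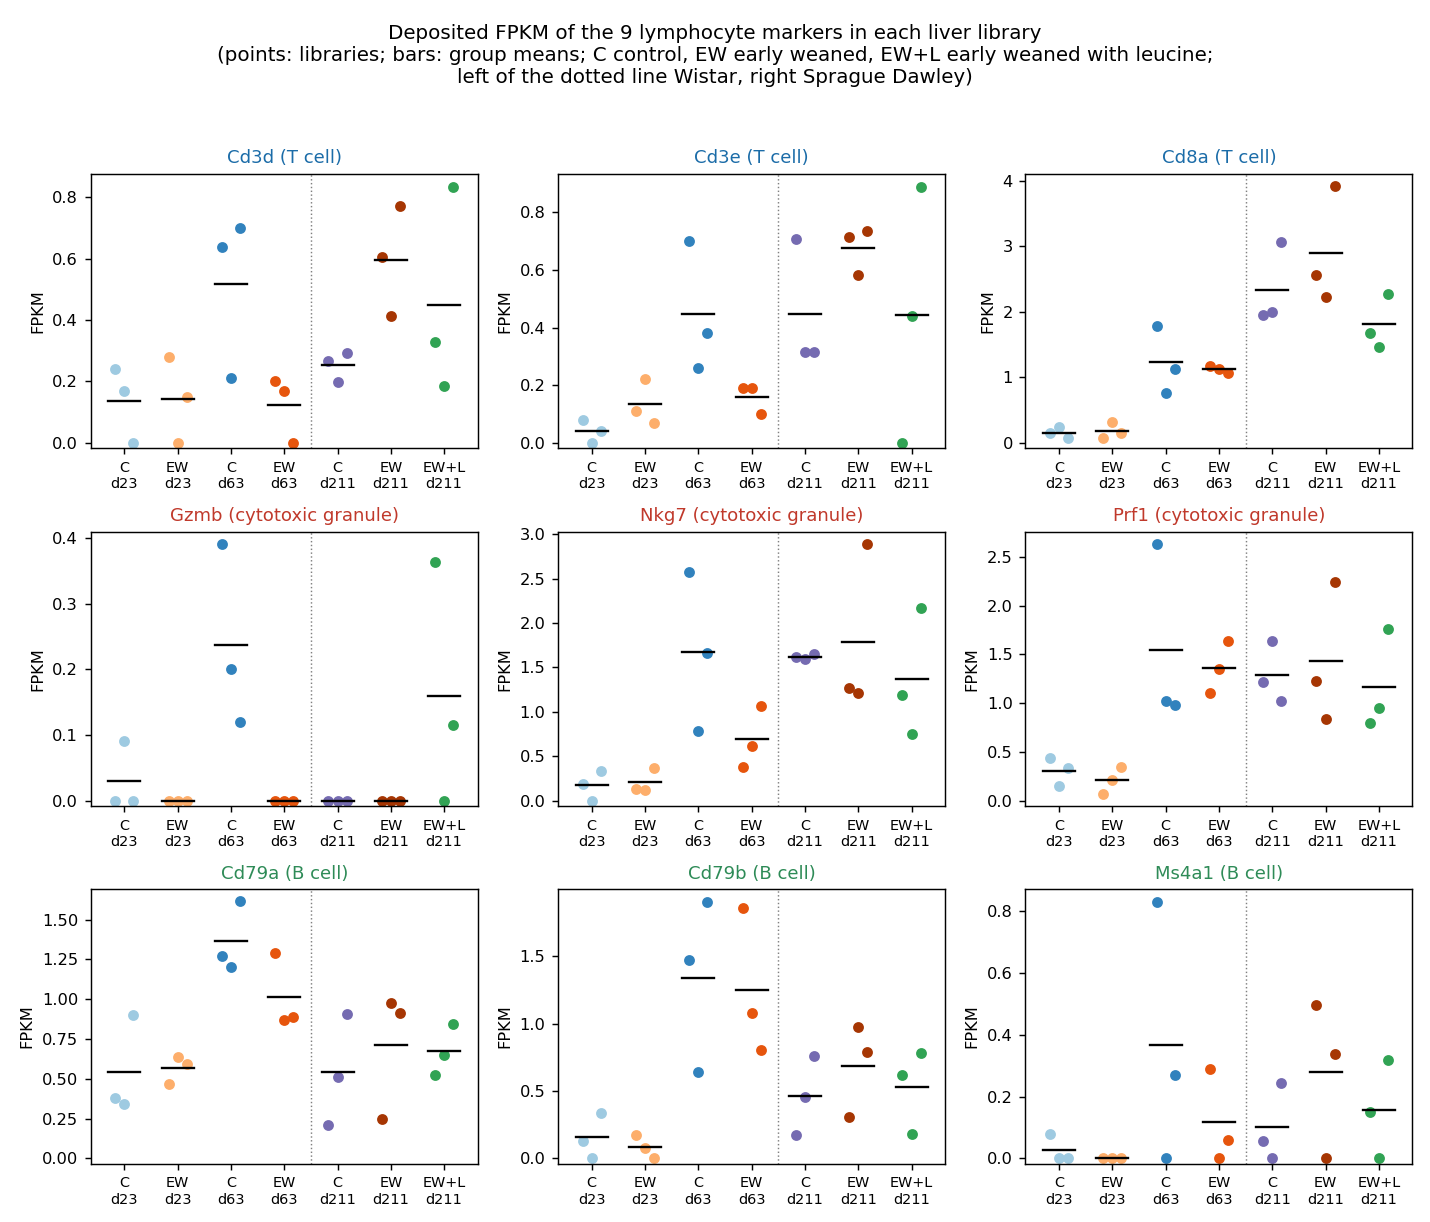
FPKM of each marker (vertical axes, linear) in every library, by group on the horizontal axis. Points are libraries, bars are means of 3, and the dotted line divides the Wistar from the SD table. Cd8a ran from 0.07 to 0.32 in the d23 libraries and from 0.76 to 1.79 in the d63 libraries.

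Age gave the calls among the lymphocyte markers, and Cd8a and Prf1 rose between d23 and d63 in both Wistar arms. In controls 4 of 9 markers rose (Cd8a, Cd3e, Nkg7 and Prf1) and none fell, where 17.6% of the 15416 tested genes were called in either direction and 7.97% as higher. In early weaned livers 3 of 9 rose (Prf1, Cd8a and Cd79b), against 27% of all genes in either direction and 13.5% as higher. Over both arms, a contrast added after the data were seen, 6 of 9 rose, against 43.3% of all genes in either direction and 20.5% as higher. Cd3d, Cd3e, Gzmb and Ms4a1 passed the filter only with their d63 libraries, so these counts beside the shares are not a test of the markers as a set. The controls' count was lower with no filter and with only the groups of the contrast, and higher in limma (last section). In bulk tissue, fewer cells of a type and less RNA per cell cannot be told apart.

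Cd8a stood at 0.15, 0.24 and 0.07 FPKM in the d23 control libraries and at 1.79, 0.76 and 1.13 in the d63 control libraries. In early weaned livers it stood at 0.08, 0.32 and 0.15 at d23 and at 1.17, 1.12 and 1.07 at d63. Every d63 library lay above every d23 library, by arm and over the arms. The log2 change was 2.99 (SE 0.585, adjusted p = 0.0108, edgeR quasi-likelihood test with Benjamini-Hochberg adjustment over all tested genes) in controls and 2.68 (SE 0.574, adjusted p = 0.00941) in early weaned livers. Both calls remained without each library in turn, while the controls' call was lost by edgeR when only their 2 groups were fitted (adjusted p = 0.0633), as were those of the other 3 markers.

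Cd3e stood at 0.08, 0 and 0.04 FPKM in d23 controls and at 0.70, 0.26 and 0.38 in d63 controls. In early weaned livers it stood at 0.11, 0.22 and 0.07 at d23 and at 0.19, 0.19 and 0.10 at d63. The control libraries did not overlap between ages, and the early weaned libraries did. The log2 change was 3.30 in controls (SE 0.988, adjusted p = 0.0428 by edgeR) and 0.42 in early weaned livers (SE 0.899, adjusted p = 0.754). The controls' call was lost without any 1 of their 6 libraries, with adjusted p from 0.0533 to 0.137. Cd3d, the partner chain, stood at 0.24, 0.17 and 0 in d23 controls and at 0.64, 0.21 and 0.70 in d63 controls. Its early weaned libraries read 0.28, 0 and 0.15 at d23 and 0.20, 0.17 and 0 at d63, so that the ages overlapped in both arms. Neither of its age changes passed (1.84, adjusted p = 0.404, and -0.07, adjusted p = 0.976, edgeR).

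Perforin followed Cd8a. Prf1 stood at 0.44, 0.15 and 0.33 FPKM in d23 controls and at 2.63, 1.02 and 0.98 in d63 controls. In early weaned livers it stood at 0.07, 0.21 and 0.34 at d23 and at 1.10, 1.35 and 1.64 at d63. No d23 library reached a d63 library. The log2 change was 2.32 in controls (SE 0.592, adjusted p = 0.0260, edgeR) and 2.83 in early weaned livers (SE 0.606, adjusted p = 0.00933). The controls' call was lost without d23 library 1 (adjusted p = 0.0599), d23 library 2 (0.0916) or d63 library 1 (0.0992), and the early weaned call remained without each library.

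Nkg7 stood at 0.19, 0 and 0.33 FPKM in d23 controls and at 2.58, 0.78 and 1.66 in d63 controls. In early weaned livers it stood at 0.13, 0.12 and 0.37 at d23 and at 0.38, 0.62 and 1.07 at d63. The ages did not overlap in either arm, although the nearest early weaned libraries were 0.37 and 0.38. The log2 change was 3.20 in controls (SE 1.00, adjusted p = 0.0499, edgeR) and 1.84 in early weaned livers (SE 0.959, adjusted p = 0.171). The controls' call was lost without any 1 of 5 libraries, with adjusted p from 0.0665 to 0.148, and remained without d23 library 3. Gzmb was at 0 in 8 of 12 Wistar libraries. It read 0, 0.09 and 0 in d23 controls and 0.39, 0.20 and 0.12 in d63 controls, and its change between these groups did not pass (2.77, SE 1.60, adjusted p = 0.266, edgeR).

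Of the B cell markers, Cd79a was the most abundant at d23. It stood at 0.38, 0.34 and 0.90 FPKM in d23 controls, at 1.27, 1.20 and 1.62 in d63 controls, at 0.47, 0.64 and 0.59 in d23 early weaned livers and at 1.29, 0.87 and 0.89 in d63 early weaned livers. The ages did not overlap in either arm. Its changes of 1.31 (SE 0.417, adjusted p = 0.0526, edgeR) and 0.96 (SE 0.414, adjusted p = 0.106) did not pass within an arm. Without d23 control library 3, the change in controls was 1.89 (adjusted p = 0.00281).

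Cd79b stood at 0.13, 0 and 0.34 FPKM in d23 controls and at 1.47, 0.64 and 1.90 in d63 controls. In early weaned livers it stood at 0.17, 0.08 and 0 at d23 and at 1.86, 1.08 and 0.80 at d63. All 6 d63 libraries lay above all 6 d23 libraries. The log2 change was 3.06 in controls (SE 1.15, adjusted p = 0.0856, edgeR) and 3.96 in early weaned livers (SE 1.21, adjusted p = 0.0344). The early weaned call was lost without any 1 of its 6 libraries, with adjusted p from 0.0549 to 0.0960. Ms4a1 was detected in 1 of 6 d23 libraries, at 0.08, and in 4 of 6 d63 libraries, at 0.83 and 0.27 in controls and at 0.29 and 0.06 in early weaned livers, and it did not pass in either arm (adjusted p = 0.271 and 0.128, edgeR).

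Over both arms, Cd8a (2.83, adjusted p = 0.000681), Prf1 (2.57, adjusted p = 0.00118), Cd79b (3.51, adjusted p = 0.00687), Cd79a (1.13, adjusted p = 0.0106), Nkg7 (2.52, adjusted p = 0.0138) and Cd3e (1.86, adjusted p = 0.0413) rose by edgeR. The calls of the first 5 remained under all 22 alternatives. That of Cd3e was lost without any 1 of 9 of the 12 libraries, with adjusted p from 0.0510 to 0.111 by edgeR, and remained under 9 of 20 alternatives. Ms4a1 (adjusted p = 0.0508, edgeR) and Cd3d (0.88, adjusted p = 0.519) did not pass, and Gzmb had no usable estimate. The median of the 9 changes was 2.99 in controls, 1.84 in early weaned livers and 2.52 over both arms, where the medians of all tested genes were -0.04, -0.02 and -0.03. Libraries lay wholly above the younger group for 7 of 9 markers in controls and for 5 in early weaned livers, against 17% and 21.7% of all genes.

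**Figure D2:**
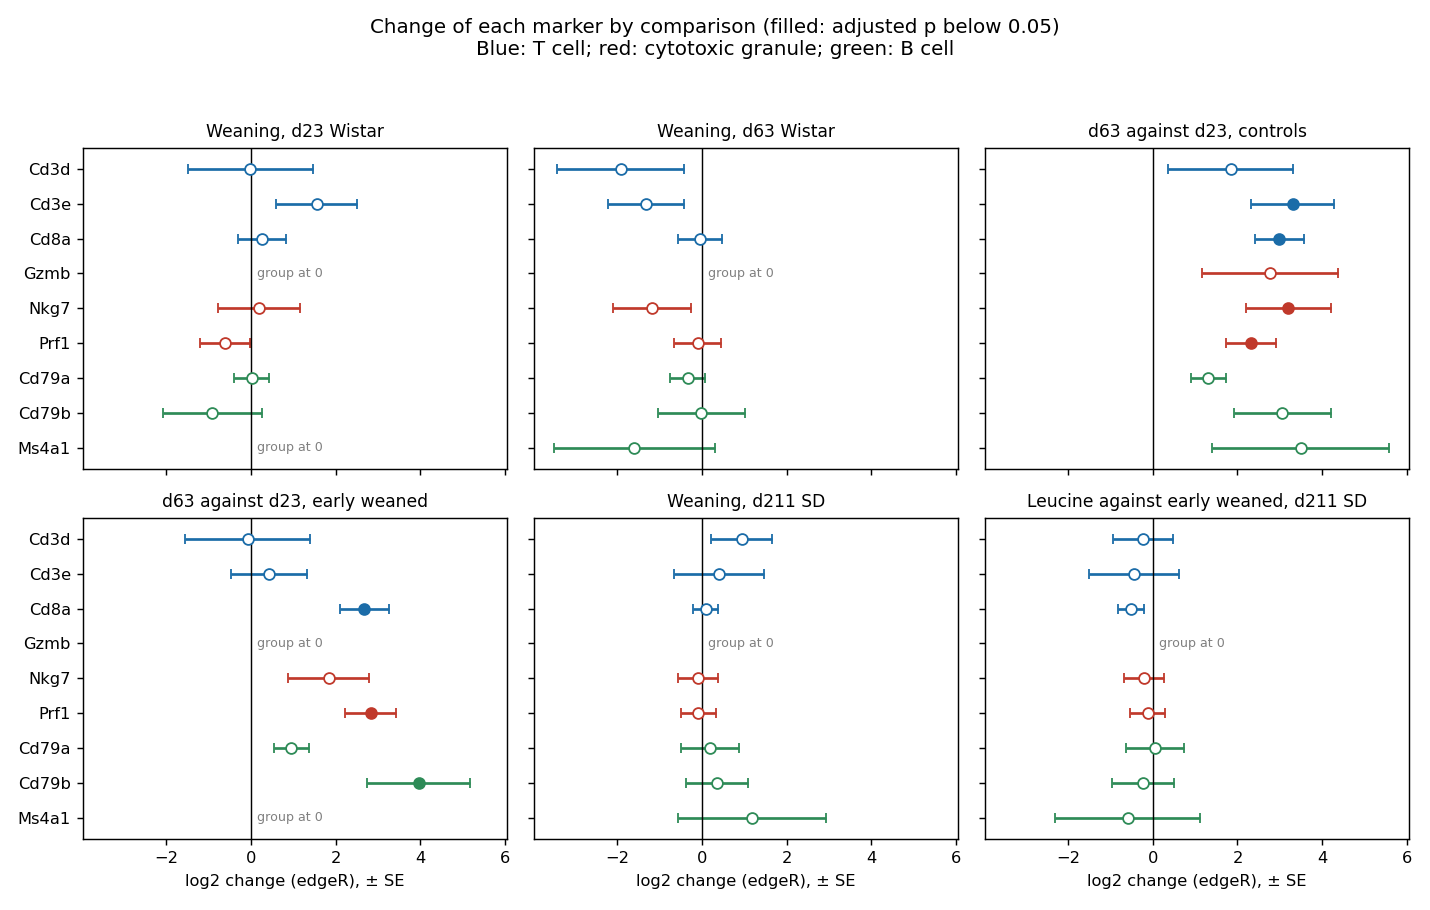
Log2 change of each marker with its standard error (horizontal axis, edgeR) in 6 comparisons. Filled points passed an adjusted p of 0.05, which occurred in the panels of age alone, and markers with a group at 0 have no point.

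Early weaning gave no call among the markers at d23 or d63. At d23, 0 of 9 passed, where 0.013% of all genes did, and none had an unadjusted p below 0.05. At d63, 0 of 9 passed, where 0% of all genes did, and 1, Gzmb, had an unadjusted p below 0.05 (adjusted p = 0.717, edgeR). Over both ages, 0 of 9 passed against 0% of all genes, again with Gzmb as the single unadjusted p below 0.05. DESeq2 and limma called 0 markers in each of these.

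At d63 the estimate of every marker was below 0 in early weaned livers, where 51.2% of all genes were. The median was -1.17, or -0.97 with Gzmb set at its bound, against -0.01 for all genes. Libraries did not overlap for Cd3d, Cd3e and Gzmb, 3 of 9 markers, where 13.9% of all genes lay wholly lower. For Cd3d this was a near tie, with 3 fragments in control library 2 and 2.5 in early weaned library 1. The lowest Gzmb control library held 3.5 fragments. Cd3d at 0.64, 0.21 and 0.70 FPKM in controls met 0.20, 0.17 and 0 in early weaned livers, a log2 change of -1.92 (SE 1.49, adjusted p = 0.952, edgeR). Cd3e gave -1.32 (SE 0.897, adjusted p = 0.923). Gzmb was listed at 0.39, 0.20 and 0.12 in controls and at 0 in all 3 early weaned libraries. Against a floor of 3 fragments per library, that is at least 1.96-fold higher in controls.

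Cd8a (-0.04, SE 0.530), Prf1 (-0.10, SE 0.557) and Cd79b (-0.01, SE 1.03) lay near 0 in the same contrast, with an adjusted p of 1.00 each by edgeR. The signs of these 3 changed under at least 1 alternative, and those of the other 6 under none. The d63 control group was itself spread. Its library 1 held the highest Wistar level of 6 markers and its library 3 that of the other 3, while library 2 read 0.78 for Nkg7 against 2.58 in library 1. Without library 1, 6 of 9 estimates were below 0 and the median was -0.37. The age comparison in controls and the d63 comparison of weaning use the same 3 d63 control libraries.

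The difference of the weaning effect between d63 and d23 was tested directly, and 0 of 9 markers passed, where 0.00649% of all genes did. Among markers with no group at 0, its estimate was farthest from 0 for Cd3e at -2.88 (SE 1.31, adjusted p = 1.00, edgeR). Its early weaned mean was 0.133 ± 0.0777 FPKM at d23 against 0.0400 ± 0.0400 in controls, where the libraries overlapped, and 0.160 ± 0.0520 at d63 against 0.447 ± 0.227 (SD, n = 3). The FPKM means of Cd3d, Cd8a, Nkg7 and Cd79a were ordered the same way, but their d23 libraries overlapped and the d23 means lay close. Cd3d stood at 0.143 against 0.137 and Cd8a at 0.183 against 0.153. The edgeR estimate of Cd3d at d23 was -0.01. No marker had an unadjusted p below 0.05 in this test, and DESeq2 and limma called 0.

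At d211 none of the 8 markers tested in SD rats passed in any comparison. Early weaned against control livers gave 0 of 8, where 0.719% of the 15019 tested genes were called. Leucine against early weaning alone gave 0 of 8 against 0.36%, and leucine against control 0 of 8 against 0.0133%. No unadjusted p was below 0.05, and DESeq2 and limma called 0 markers as well.

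Cd8a was the most abundant marker at this age. It stood at 1.95, 2.00 and 3.06 FPKM in controls, at 2.56, 2.23 and 3.91 in early weaned livers and at 1.68, 1.47 and 2.27 with leucine. The groups overlapped, and the change was 0.09 for weaning (SE 0.301, adjusted p = 0.926, edgeR) and -0.51 for leucine against early weaning (SE 0.303, adjusted p = 0.542). Cd3d was the marker whose libraries did not overlap, at 0.268, 0.200 and 0.293 in controls and at 0.607, 0.412 and 0.772 in early weaned livers, where 21.1% of all genes lay wholly higher. Its change of 0.94 did not pass (SE 0.722, adjusted p = 0.567). With leucine it read 0.327, 0.184 and 0.835, a range that takes in both other groups.

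Cd3e read 0.708, 0.315 and 0.314 FPKM in d211 controls, 0.715, 0.583 and 0.734 in early weaned livers and 0, 0.441 and 0.889 with leucine. Nkg7 was even in controls, at 1.61, 1.59 and 1.65, and spread in the other groups, at 1.27, 1.21 and 2.89 in early weaned livers and at 1.19, 0.750 and 2.17 with leucine. Prf1 overlapped throughout, with means of 1.29 ± 0.312, 1.44 ± 0.729 and 1.17 ± 0.520 (SD, n = 3). Library 3 of the early weaned group and library 3 of the leucine group were the highest of their groups for Cd8a, Nkg7 and Prf1. Gzmb was at 0 in 7 of 9 SD libraries and was not tested in this table. It read 0.363 and 0.115 in leucine libraries 1 and 3, from 9 and 3 fragments, and 0 in leucine library 2. Only library 1 lay above the floor of 3 fragments, so no fold between the groups is given.

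The B cell markers overlapped among the d211 groups. Cd79a ran from 0.213 to 0.905 FPKM in controls, from 0.249 to 0.976 in early weaned livers and from 0.522 to 0.845 with leucine. Cd79b ran from 0.174 to 0.759, from 0.303 to 0.971 and from 0.178 to 0.784. Ms4a1 was at 0 in 1 library of each group and reached 0.497 in an early weaned library. Their weaning changes were 0.20 (SE 0.683), 0.36 (SE 0.736) and 1.19 (SE 1.75), with adjusted p from 0.799 to 0.927 by edgeR. The median of the 8 tested markers was 0.28 for weaning, where 6 of 8 estimates were above 0, and 8 of 8 were with no scaling beyond the total, which moved the median of all genes from 0.02 to 0.24. Without control library 1 the markers' median was -0.028, and with any 1 library left out 0 to 5 estimates were below 0.

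The sums of the 3 T cell and the 3 B cell markers stood in different proportion in the Wistar and SD tables, with Cd8a the largest part of the T cell sum in SD. The summed level of Cd79a, Cd79b and Ms4a1 exceeded that of Cd3d, Cd3e and Cd8a in 2 of 3 d23 control libraries and in all 9 other Wistar libraries. It was below it in all 9 SD libraries. In d63 controls the B cell sum was 3.07 ± 1.07 FPKM and the T cell sum 2.19 ± 0.950, and in d211 controls they were 1.11 ± 0.742 and 3.04 ± 0.587 (SD, n = 3). The sum of the granule markers was 3.45 ± 1.90 and 2.91 ± 0.285 in the same groups. In d211 controls Cd8a had a mean of 2.34 FPKM, against 0.253 for Cd3d and 0.446 for Cd3e, which together lay below the B cell sum. The longer lists of other T and B cell genes (below) did not show the turn. Their mean sums were 10.4 for T cells and 14.9 for B cells in d211 controls, 20.2 and 20.8 in d63 controls, and 14.3 and 13.3 in d23 controls. Strain, age and table are one split here and cannot be told apart, and levels from the tables are set side by side without a test, since the authors may have normalized the tables apart.

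**Figure D3:**
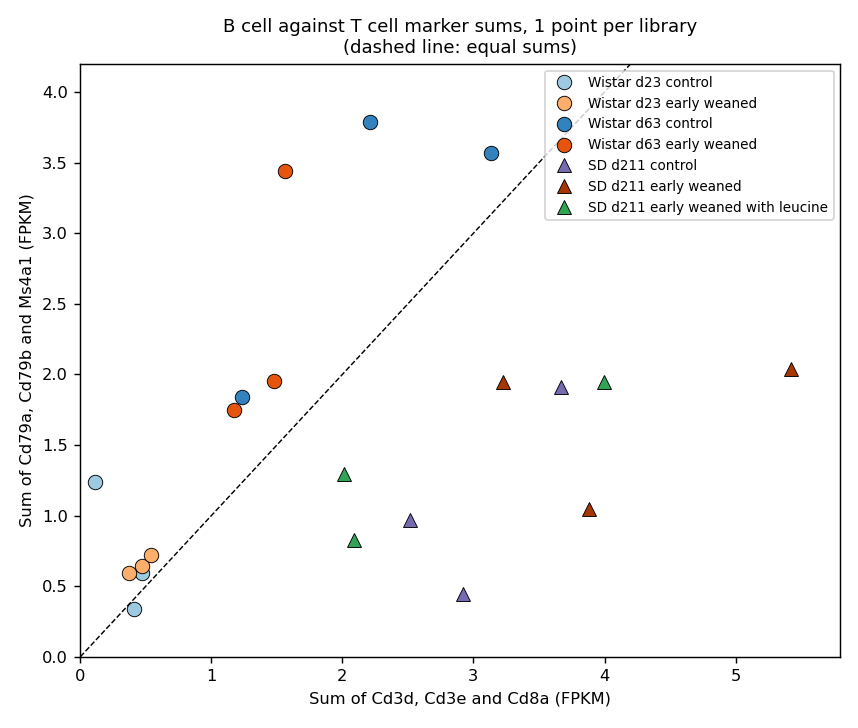
Summed FPKM of the 3 B cell markers (vertical axis) against that of the 3 T cell markers (horizontal axis), 1 point per library, circles for Wistar and triangles for SD. All 9 SD points lie below the line of equal sums, and 11 of 12 Wistar points lie above it.

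By group mean, Cd8a was highest in early weaned SD livers (2.90 ± 0.892 FPKM) and lowest in d23 controls (0.153 ± 0.0850), and Prf1 was highest in d63 controls (1.54 ± 0.941) and lowest in d23 early weaned livers (0.207 ± 0.135, SD, n = 3). Cd79a and Cd79b were highest in d63 controls, at 1.36 ± 0.225 and 1.34 ± 0.640. Neighbours in the order of the 7 groups could rarely be told apart, as the ranges of 51 of the 54 neighbouring pairs overlapped over the 9 markers. Across the 12 Wistar libraries, log2 levels of marker pairs correlated with a median r of 0.578 for the 9 pairs of one lineage and 0.655 for the 27 pairs of different lineages. After the group means were taken out the medians were 0.162 and 0.188. In the 9 SD libraries they were 0.401 and 0.329, and 0.311 and 0.396 within groups. These are descriptions over libraries that share depth and scaling.

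Among 11804 genes at a mean of at least 0.5 FPKM in both tables, the 3 with the most similar pattern to each marker were found by the lower of 2 correlations, over the 12 Wistar and the 9 SD libraries. Of the 27 genes named in this way, 18 were also found with a pseudocount of 1 in place of 0.1. They are the highest of many correlations over few libraries, and the Wistar values take in the step between d23 and d63. Whether such values exceed chance was not tested. For Prf1 they were Gdnf (0.892), C1r (0.853) and Lsp1 (0.852), the last a leukocyte protein of the cytoskeleton and the only one of the 27 from the related lists. For Cd8a they were Dipk1a (0.899), Sppl2a (0.868) and RGD1309730 (0.863), and for Cd79b the water channel Aqp8 (0.908), Prkra (0.883) and Zfp467 (0.821). For Cd79a the closest was Mrpl39 (0.856), for Nkg7 Pon2 (0.831), for Ms4a1 Cdh17 (0.774), for Cd3e MGC105567 (0.769), for Cd3d LOC102555457 (0.733) and for Gzmb Gng2 (0.670).

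Genes other than the 9 markers were read from 15 lists of related functions and cell types, of which 224 of 233 symbols had an entry. Over both arms between d23 and d63, 16 of 23 tested cytotoxic and natural killer cell genes rose and none fell by edgeR, with a median log2 change of 2.03. Without 1 library in turn, 13 to 17 rose. Il2rb, a receptor chain for interleukins that sustain natural killer cells, rose by 1.68 (SE 0.256, adjusted p = 0.000826), with 0.77 to 1.62 FPKM in d23 controls and 1.92 to 3.81 in d63 controls. Klrk1, an activating receptor of natural killer cells, rose by 2.26 (SE 0.357, adjusted p = 0.000964). Gzma, granzyme A, rose by 2.11 in controls (SE 0.433, adjusted p = 0.0127), from 0.743 ± 0.243 to 3.20 ± 1.47 FPKM (SD, n = 3).

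Of the T cell genes 6 of 23 rose and none fell, a share near the 20.5% of all genes, and the list's median was 1.05, or 0.94 with the gene at 0 in all d23 libraries left out. Cd247, the CD3 zeta chain, rose by 1.25 (SE 0.368, adjusted p = 0.0186, edgeR). Cd8b, which pairs with Cd8a in the co-receptor of T cells, was at 0 in all 6 d23 libraries and in the 3 d63 early weaned libraries, and read 0.14 to 0.17 FPKM in d63 controls, at least 1.23-fold higher than in d23 controls. The summed level of the list ran from 13.9 to 14.9 in d23 controls and from 17.8 to 23.9 in d63 controls, against 12.2 to 13.2 and 10.9 to 12.9 in early weaned livers. With no scaling beyond the total, 4 of 23 rose, and 2 of 23 without d63 control library 1. Without d63 early weaned library 2, 3 of 26 rose.

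Of the B cell genes 8 of 20 rose and 1 fell, with a median of 1.08, or 1.04 with a gene at 0 at d23 set at its bound. Ciita, the activator of class II antigen presentation genes, rose by 2.74 (SE 0.431, adjusted p = 0.000953, edgeR), from 0.05 to 0.19 FPKM in d23 controls to 0.43 to 1.63 in d63 controls. Fcer2, the low-affinity IgE receptor of mature B cells, was at 0 in all 6 d23 libraries and present in all 6 d63 libraries, at 0.05 to 0.15. Vpreb3, a gene of developing B cells, fell by 1.46 (SE 0.520, adjusted p = 0.0420). The B cell precursor list went both ways, with 2 of 7 higher, Flt3 and Lax1, and 2 lower, Cd24 and Erg. Flt3 is also counted in the dendritic cell list, and which cells carried the RNA of these genes was not tested. Of 9 plasma cell genes 4 rose, Jchain of secreted antibody by 2.85 (SE 0.501, adjusted p = 0.00159) among them, and Prdm1, a factor of plasma cell formation that other cells also use, fell by 3.10 (SE 0.555, adjusted p = 0.00176).

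Genes that draw or hold lymphocytes moved with age as well, with 14 of 26 higher and 2 lower, or 9 higher without d23 early weaned library 1. Cxcl9 and Cxcl10, chemokines for activated T cells and natural killer cells, rose by 4.08 (SE 0.446, adjusted p = 0.000161, edgeR) and 3.40 (SE 0.388, adjusted p = 0.000201). Cxcl9 ran from 0.51 to 1.61 FPKM in d23 controls and from 6.91 to 25.9 in d63 controls, and from 0.19 to 0.52 and from 5.24 to 6.54 in early weaned livers. Cxcl12, a chemokine for naive lymphocytes and precursors, rose by 2.47 (SE 0.403, adjusted p = 0.00113). The endothelial adhesion genes Aoc3 and Vcam1 fell by 1.75 (SE 0.222, adjusted p = 0.000339) and 0.96 (SE 0.259, adjusted p = 0.0127).

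**Figure D4:**
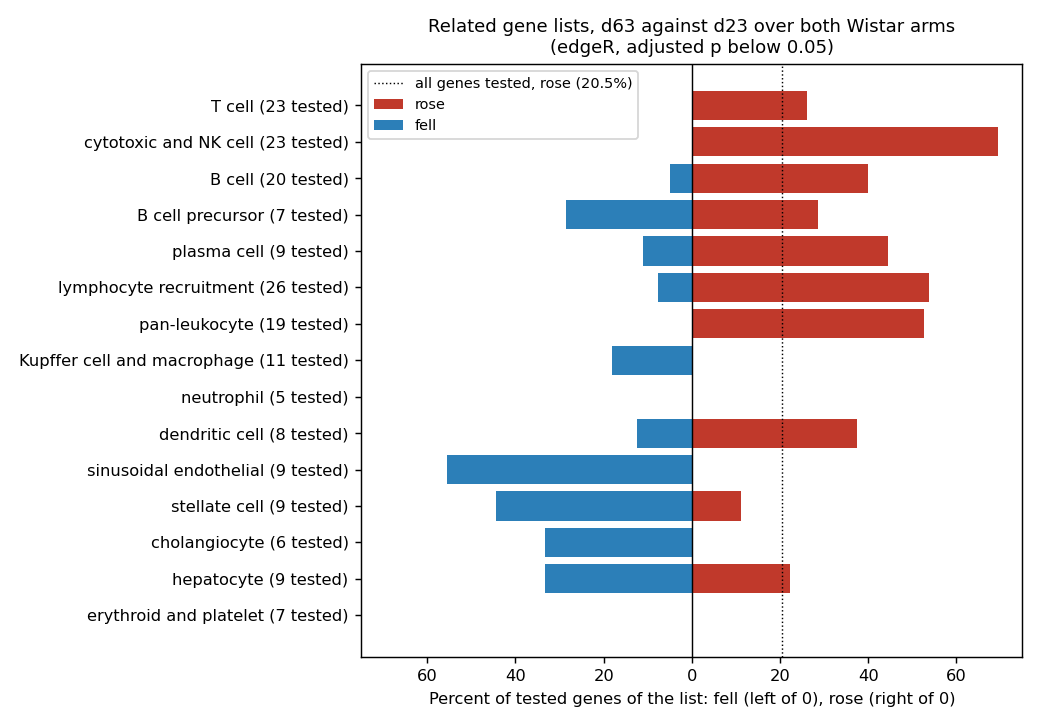
Percent of the tested genes of each related list that rose (red, right) or fell (blue, left) between d23 and d63 over both Wistar arms by edgeR. The dotted line is the 20.5% of all tested genes that rose, and the bar of the cytotoxic and natural killer cell list, 16 of 23 genes, reaches past it.

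Markers of other liver cells were read over the same contrast, in which 22.8% of all tested genes fell, and their part in the lymphocyte results was not tested. Of 19 pan-leukocyte genes 10 rose and none fell, and their summed level ran from 52.6 to 69.9 FPKM in d23 controls and from 79.9 to 136.8 in d63 controls. Of 9 sinusoidal endothelial genes 5 fell (7 with no scaling beyond the total), Lyve1 by 1.25 (SE 0.133, adjusted p = 0.000139, edgeR), and the sum ran from 144.4 to 161.6 at d23 and from 92.0 to 138.7 at d63 in controls. Of 9 stellate cell genes 4 fell and 1 rose, with sums of 167.3 to 200.3 and 77.0 to 95.7. Of 11 Kupffer cell and macrophage genes 2 fell, Cd163 and Marco, a share below that of all genes, or 4 with no scaling beyond the total and 5 without d63 control library 1, and none rose. By edgeR, 0 of 5 neutrophil and 0 of 7 erythroid and platelet genes were called. DESeq2 called 1 of 7 neutrophil genes as higher and 1 as lower, and 1 of 7 erythroid and platelet genes as lower, and without d63 control library 3 edgeR called 3 of 7 erythroid and platelet genes as lower. The erythroid and platelet sum ran from 1367 to 1970 in d23 controls and was 715.2, 98.7 and 2312 in d63 control libraries 1, 2 and 3. Of 8 dendritic cell genes 3 rose and 1 fell, of 6 cholangiocyte genes 2 fell, and of 9 hepatocyte genes 2 rose and 3 fell.

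By the main edgeR fits, with all libraries, no gene of the 15 lists passed in any comparison of weaning or leucine. At d63, all 23 tested T cell genes had an estimate below 0 in early weaned livers, with a median of -0.77, and 20 of 23 without d63 control library 1, with a median of -0.52. DESeq2 called 1 of 28 T cell genes and 1 of 9 sinusoidal endothelial genes as lower in this contrast. All 11 Kupffer cell and macrophage genes and all 9 sinusoidal endothelial genes were below 0 as well, 7 and 9 without that library. The cytotoxic and natural killer cell list had a median of -0.30, and of 0.32 without that library. At d211, 15 of 22 T cell genes, 19 of 22 cytotoxic and natural killer cell genes and all 6 cholangiocyte genes were above 0 in early weaned livers, where 52.3% of all genes were, and all 9 hepatocyte genes were below 0 (7 of 9 with no scaling beyond the total). With 1 library left out, 4 to 8 T cell, 2 to 9 cytotoxic and natural killer cell, 0 to 2 cholangiocyte and 8 to 9 hepatocyte genes were below 0. The granule markers Nkg7 and Prf1 gave -0.08 and -0.09. DESeq2 called 1 B cell, 1 B cell precursor, 3 recruitment and 1 cholangiocyte gene as higher in d211 early weaned livers, and 2 recruitment and 2 hepatocyte genes as lower. In the same contrast, edgeR with 1 library left out called up to 3 recruitment genes and up to 1 cholangiocyte gene as higher. As lower it called up to 1 recruitment and up to 1 hepatocyte gene. The cholangiocyte sums were 15.6 to 29.8 FPKM against 7.81 to 12.6 in controls.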

How the data were processed

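Liver RNA was read in 21 bulk libraries. Per the labels' protocols, a spin-column kit gave the RNA and a SMARTER mRNA-seq kit the libraries. The authors deposited, per the file headers, an expected count and an FPKM value for each of 32623 genes in 2 tables, 1 for Wistar and 1 for SD rats. The submitters' processing notes name the builds GRCm38 and mm10, which are mouse builds, while the deposited gene identifiers are of the rat. Which aligner and which counter were used is not given in the sources used here. Counts were whole numbers in which 1 fragment appears to add 4 units, read from the pile-up of low values at multiples of 4, and total counts ran from 52054644 to 75118153 per library. Without molecular identifiers, the floor of 3 fragments (12 count units per library) covers counting error only.

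Each table was fitted apart in R 4.3.3 with edgeR 4.0.16: TMM scaling, filterByExpr at a minimum count of 10, 1 mean per group, the quasi-likelihood test (two-sided) and Benjamini-Hochberg adjustment over all tested genes, with 0.05 as the threshold. Log2 changes and medians come from these fits, and levels are the deposited FPKM. Alternatives used DESeq2 1.42.0, limma 3.58.1 on log2(FPKM + 0.1) and log2(FPKM + 1), other scaling and filters, counts divided by 4, only the groups compared, a replicate block, and each library left out. The procedure was tested on simulated data. A list gene was named where it passed, up to 3 per list, direction and age comparison, and similar genes were the 3 of highest likeness per marker. The markers, lists and tests were chosen with earlier results of these data known.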

Additional observations from a re-analysis of the deposited data

How the results depend on the processing

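No marker was called in any comparison of weaning or leucine under any alternative run. The count of markers that rose with age in controls, 4, was 2 with no filter, 7 in each of the limma settings and 0 with only the groups of the contrast, and ran from 1 to 5 with a library left out. The controls' median of 2.99 was 1.93, 0.63 and 1.93 in limma on log2(FPKM + 0.1), log2(FPKM + 1) and log2(FPKM + 0.1) without a filter, and 2.22 to 3.24 with a library left out. The early weaned median of 1.84 was 2.68 at a minimum count of 40, 2.61 with counts divided by 4, 0.88, 0.36 and 0.88 in the same limma settings, 2.27 with only the groups of the contrast, and 1.35 to 2.49 with a library left out. Over both arms, 2.52 became 1.15, 0.50 and 1.15 in limma. A pseudocount shrinks the change of low genes by construction, and the higher minimum tests fewer markers. The d63 weaning median of -1.17 was -0.10 at a minimum count of 40, -0.11 with counts divided by 4, -0.26 in limma on log2(FPKM + 1), and -1.51 to -0.37 with a library left out. With a library left out, the median ran from -1.49 to -0.23 for the difference of the weaning effect between ages, from -0.028 to 0.39 for d211 weaning, from -0.71 to 0.081 for leucine against early weaning, and from -0.53 to 0.64 for leucine against control. Other causes were not tested.

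Deviations of samples that share a replicate number correlated from -0.18 to 0.19 over 18 Wistar pairs and from -0.13 to 0.25 over 9 SD pairs. No values for samples with different numbers are given beside them, so this does not settle whether the numbers pair the samples. A fit with the replicate number as a block called 3 markers with age in controls, with Cd3e at an adjusted p of 0.0639 by edgeR, and 49 genes for d211 weaning against 108.

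Over all genes, DESeq2 called 116, 87 and 170 for weaning at d23, at d63 and over both ages (edgeR 2, 0 and 0), 45 for the difference between ages (edgeR 1), 4102 with age in controls (edgeR 2710), and 1102, 772 and 201 for d211 weaning, leucine against early weaning and leucine against control (edgeR 108, 54 and 2). Only the groups of the contrast gave 281 with age in controls and 31 for d211 weaning, and limma on log2(FPKM + 0.1), with and without the filter, gave 165 and 7 for d211 weaning. A library left out moved that count from 2 to 534, the count of leucine against early weaning from 1 to 539 (154 with counts divided by 4), the count with age in controls from 646 to 6001, and that in early weaned livers from 1923 to 2997 (4161 with all). With no scaling beyond the total, 1621 rose and 2778 fell with age in early weaned livers, against 2085 and 2076, 332 rose and 55 fell with d211 weaning, against 63 and 45, and 26 rose and 75 fell with leucine against early weaning, against 27 and 27. Depth limits the markers most at d23, where only Cd79a and Prf1 had a count of at least 10 in all 3 libraries of a group.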
